A study of Mus musculus with 18 samples.

Results

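A set of 9 genes that mark fetal liver, liver progenitors, bile ducts or liver tumours were followed in 6 groups of mouse liver: Afp, Igf2, H19, Gpc3, Spp1, Epcam, Krt19, Sox9 and Prom1. Their probe sets were chosen by gene symbol alone, as every probe set (a group of short oligonucleotides that together read 1 transcript) whose annotation names one of these genes and no other. This gave 15 probe sets of 7 genes, among 45037 probe sets that are not controls: 5 for Afp, 3 for Sox9, 2 each for Igf2 and Epcam, and 1 each for Gpc3, Krt19 and Prom1. H19 was listed only on a probe set annotated jointly to Mir675 and H19, which is described below but not counted as a member, and Spp1 was not analysed here. The signals of these 15 probe sets reached at most 79.7, and 11 of the 15 had a mean below the median of all probe set means. No probe set differed between knockout and wild type by the test in any of the 3 conditions, and 2 of the 7 that could be tested changed in any pairwise comparison: an Afp probe set was higher, and a Sox9 probe set lower, in knockout livers after the carcinogen than in knockout livers at 4 weeks. In that comparison 8.24% of all 27022 tested probe sets were called, and each of the 2 calls was lost when certain single arrays were left out.

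As background, Afp encodes alpha-fetoprotein, the main serum protein of the fetal liver, which is silenced soon after birth and can return in regeneration and in liver cancer. Igf2 is a paternally expressed growth factor and H19 its maternally expressed noncoding neighbour, and both are switched off in mouse liver after birth. Gpc3 is a cell-surface heparan sulphate proteoglycan of fetal liver and of hepatocellular carcinoma. Sox9 is a transcription factor of bile duct cells and progenitors, Krt19 a keratin and Epcam an adhesion protein of bile duct epithelium, Prom1 (CD133) a membrane protein of ducts and progenitors, and Spp1 (osteopontin) a secreted protein of duct cells.

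The study hybridized liver RNA from male mice to 18 Affymetrix arrays, with 3 for each group. The groups were Hmgn1-/- (knockout) livers with N-nitrosodiethylamine (DEN), Hmgn1+/+ (wild-type) livers with DEN, knockout and wild-type livers with saline, and knockout and wild-type livers without injection. Hmgn1 encodes a nucleosome-binding protein, and DEN is a carcinogen that hepatocyte enzymes activate. DEN (10 µg per g of body weight) or saline was given at 4 weeks of age. The injected livers are labelled 12 weeks, which may be counted from birth or from the injection, and the uninjected ones 4 weeks. Both genotypes descend from littermates of heterozygous crosses but were then bred apart as homozygous lines, and any other difference between those lines would also appear as a genotype difference. It is not stated whether the replicates of a group are separate animals, so the p-values reflect only the variation among these samples, which may be technical. Saline arrays stood apart: the maximum signal on each was 16720 to 21752, against 46967 to 60173 for the remaining 12 arrays, and the mean log2 difference of the spiked-in control BioC was -2.88. For liver genes this difference between arrays cannot be told apart from the saline treatment. None of the 3 Hmgn1 probe sets was called between the genotypes in any condition, with adjusted p from 0.577 to 0.995; where they lie relative to the deleted part was not analysed here, so the genotypes are used as labelled. All 10 hepatocyte marker genes measured were well above the floor, with a lowest median of 4181.

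Afp and the albumin gene Alb, its neighbour, lie in the same orientation on chromosome 5 (Afp at 90490714 to 90508907, Alb at 90460870 to 90476602, GRCm38.p6) and belong to one gene family with opposite courses after birth. Their upstream sequences are shown because the regulators of Afp are among the genes described further on. Capitals mark GTTAA, 5 letters of the half-site of the hepatocyte factor HNF1, searched on both strands, where matches on opposite strands may overlap. The Afp sequence holds 3 matches and the Alb sequence 2, while 21.7% of 32851 mouse promoters of the same length hold 1 or more and 1.12% hold 3 or more. A match describes these letters and is no evidence of binding. The sequences are from RefSeq, build GRCm38.p6, 5′ to 3′ on the plus strand, ending at the base before the gene start, at chr5:90490464-90490713 for Afp and chr5:90460620-90460869 for Alb.
Afp: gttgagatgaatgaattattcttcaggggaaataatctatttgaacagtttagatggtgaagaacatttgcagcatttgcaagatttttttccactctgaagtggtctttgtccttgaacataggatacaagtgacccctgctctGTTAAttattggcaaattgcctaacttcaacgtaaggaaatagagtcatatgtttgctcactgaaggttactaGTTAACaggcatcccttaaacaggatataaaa
Alb: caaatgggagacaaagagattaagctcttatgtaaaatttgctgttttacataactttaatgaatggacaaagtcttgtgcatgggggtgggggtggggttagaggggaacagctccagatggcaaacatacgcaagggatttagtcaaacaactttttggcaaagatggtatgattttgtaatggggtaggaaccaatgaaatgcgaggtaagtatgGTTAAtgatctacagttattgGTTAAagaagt

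Values are MAS5 signals, a linear intensity per probe set scaled so that all arrays share a trimmed mean. The signals of the 15 probe sets lay between 0.511 and 79.7, on arrays whose median signals were 23.3 to 31.5. A probe set was tested when its mean log2 of signal plus 16 reached the 40th percentile, which corresponds to a signal of 15.5. The 7 that passed, of 6 genes, were Afp 1416645_a_at, Igf2 1448152_at, Gpc3 1450990_at, Epcam 1447899_x_at, Sox9 1424950_at and 1451538_at, and Prom1 1419700_a_at. The 8 others did not, and Krt19 had none that did. The percentiles of the means ran from 9.81 (Afp 1436880_at) to 61.7 (Sox9 1451538_at). There were 3 probe sets with group means at or above 15.5 in every group (Epcam 1447899_x_at and the Sox9 probe sets 1424950_at and 1451538_at), and 3 that stayed below it in every group (Afp 1436880_at and 1436881_x_at, Sox9 1433889_at). At this level the error is large: among 8319 probe sets as bright as the tested ones the median spread within a group was an SD of 0.34 in log2, against 0.12 among the 4504 brightest.

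MAS5 detection calls were not used here, so a signal near the floor is not called present or absent. In bulk liver, fewer cells of a type and less RNA per cell cannot be told apart, which touches every gene here whose usual source is a minor cell type.

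**Figure D1:**
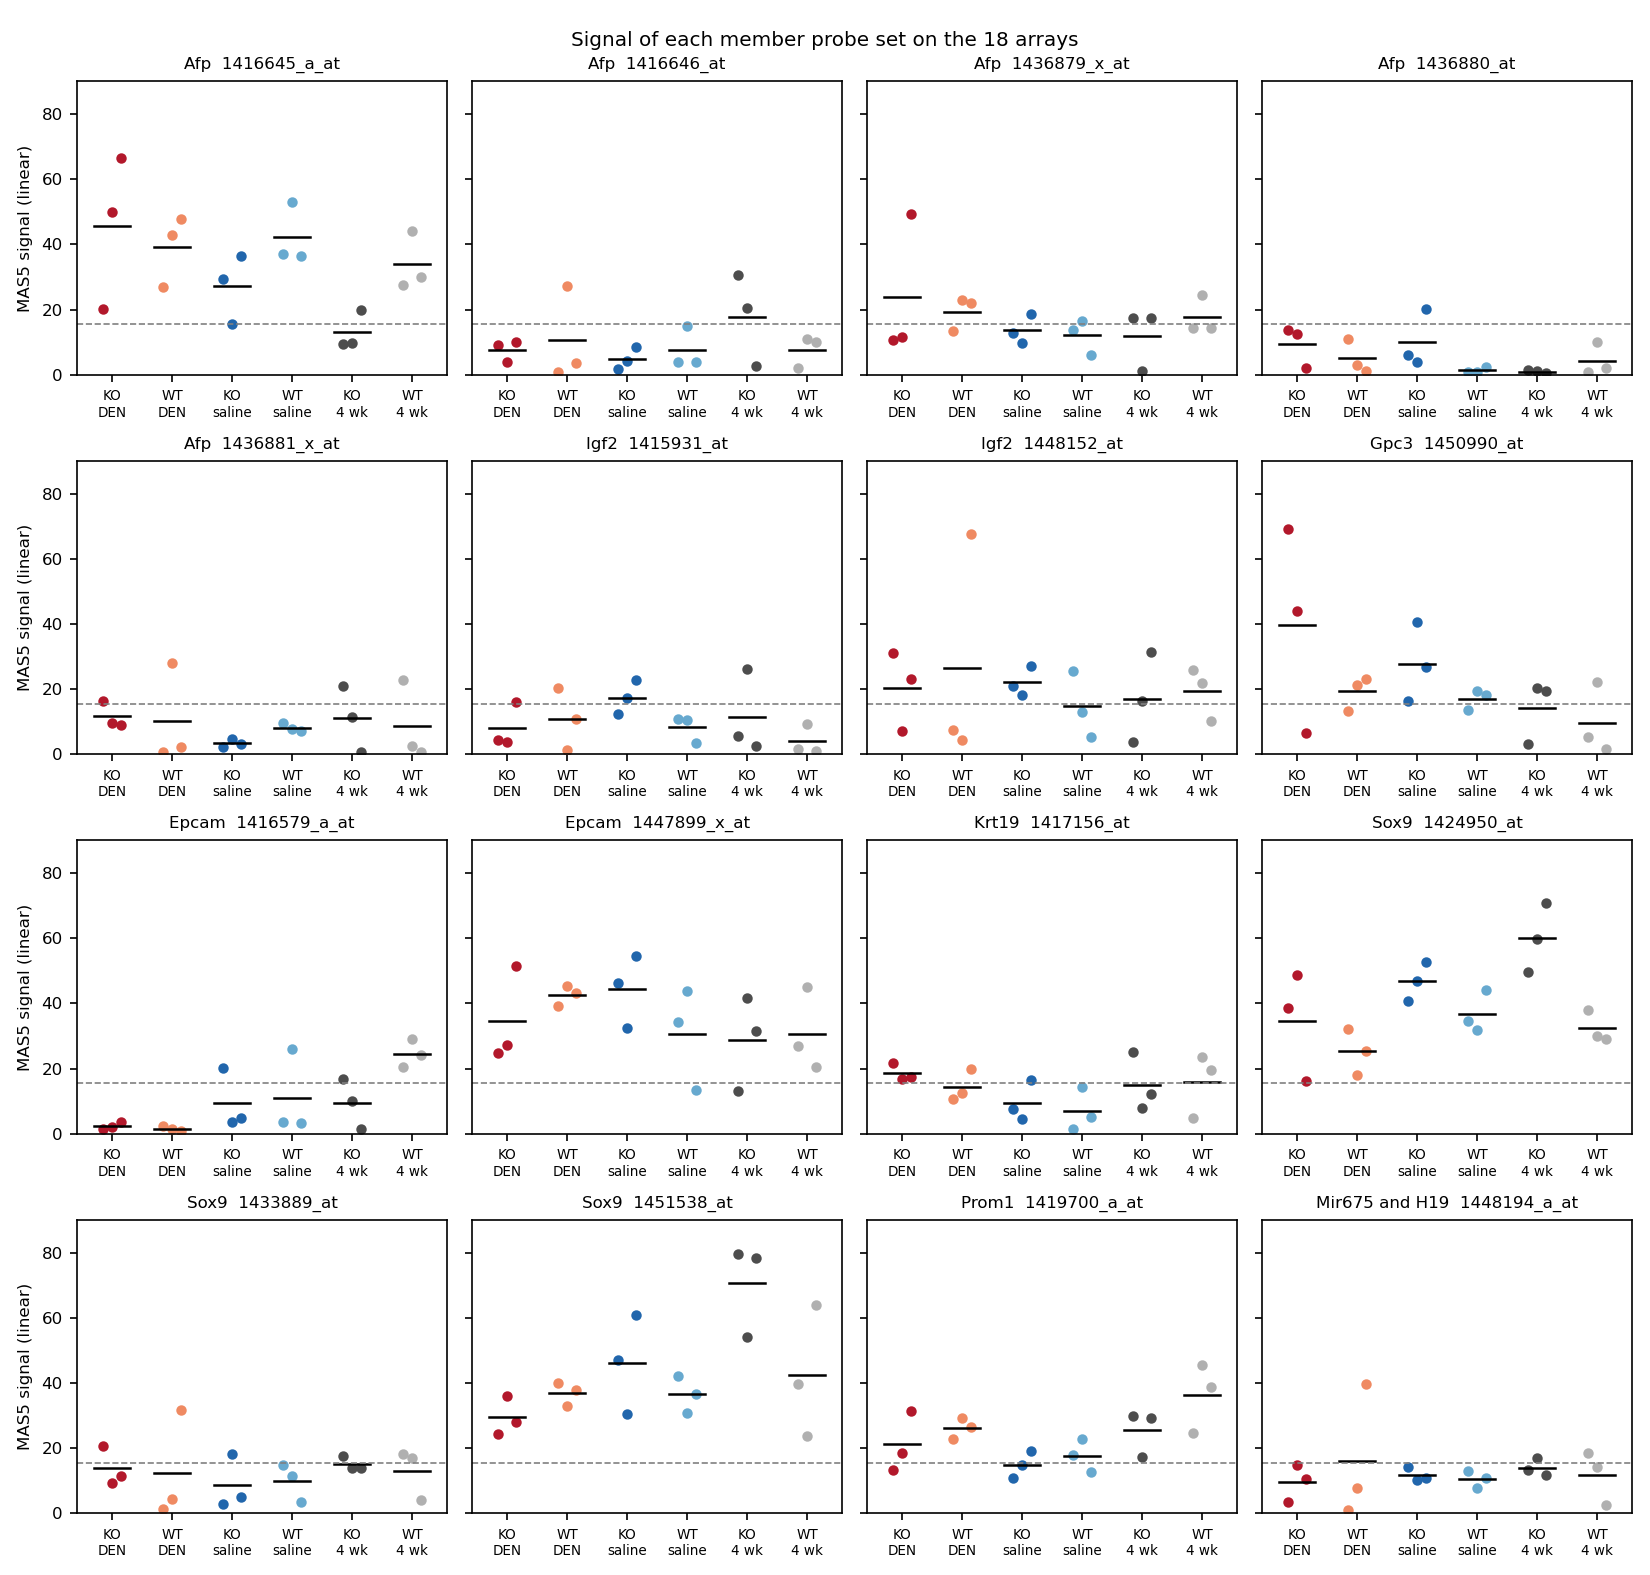
MAS5 signal (linear, y axis) of each of the 15 marker probe sets and of the Mir675 and H19 probe set on the 18 arrays, by group (x axis: knockout and wild type with DEN, with saline and at 4 weeks). Points are arrays, black lines group means and the dashed line the signal of 15.5 that the filter corresponds to; no point exceeds 79.7, and the groups of most panels overlap.

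Afp 1416645_a_at, the one tested probe set of the fetal serum protein, had signals of 20.3, 49.9 and 66.4 in knockout DEN livers and 27.0, 43.0 and 47.7 in wild-type DEN livers. With saline it had 29.4, 15.6 and 36.4 in knockout livers and 37.2, 53.0 and 36.5 in wild-type livers. At 4 weeks it had 9.60, 9.67 and 19.9 in knockout livers and 27.7, 44.0 and 30.1 in wild-type livers. The knockout livers at 4 weeks were thus the low group and lay apart from both the knockout DEN and the wild-type 4-week livers, while the wild-type groups overlapped one another. In order of the means, knockout DEN (45.5 ± 23.4, SD, n = 3) was followed by wild-type saline (42.3 ± 9.35), wild-type DEN (39.2 ± 10.9), wild-type 4 weeks (33.9 ± 8.82), knockout saline (27.1 ± 10.6) and knockout 4 weeks (13.1 ± 5.90). Neighbours in this order differed by less than the larger of their SDs, except knockout saline and knockout 4 weeks, whose log2 difference of 0.56 was not called (95% interval -0.02 to 1.14, adjusted p = 0.234, limma with Benjamini-Hochberg adjustment).

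In knockout livers Afp 1416645_a_at rose by 1.02 on the log2 scale of signal plus 16 with DEN over 4 weeks (SE 0.28, 95% interval 0.44 to 1.60, adjusted p = 0.0266, limma with Benjamini-Hochberg adjustment over 27022 probe sets). Together with a Sox9 probe set described below, 2 of the 7 tested probe sets were called in this comparison, where 8.24% of all tested probe sets were (3.53% higher and 4.71% lower). These livers differ in age as well as in injection, which cannot be told apart here. The ratio of 3' to 5' Gapdh signal, a sign of RNA quality, also differed without overlap, at 0.907 to 0.937 on the knockout DEN arrays and 1.345 to 1.704 on the knockout 4-week arrays, and its part in the Afp and Sox9 calls was not tested. Wild-type DEN arrays had 1.025 to 1.126 and wild-type 4-week arrays 1.125 to 2.188. In wild-type livers the same comparison gave 0.14 for this Afp probe set (95% interval -0.44 to 0.72, adjusted p = 0.829), and 0 of 7 probe sets were called by limma, 0 of them with an unadjusted p under 0.05, against 4.4% called of all. The difference between the 2 genotypes' changes was 0.88 (95% interval 0.06 to 1.70) and was not called (adjusted p = 0.314), so the rise is not shown to differ between them.

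The Afp call depended on single arrays. It was lost without knockout 4-week array 1 (0.94, adjusted p = 0.105) or 2 (0.94, adjusted p = 0.0745), and without knockout DEN array 2 (0.93, adjusted p = 0.102) or 3 (0.77, adjusted p = 0.119), all in the same limma fit with Benjamini-Hochberg adjustment. Without the 4-week array of highest Gapdh ratio in each genotype, a fit chosen after seeing the data, it was 0.94 (adjusted p = 0.0907). With no filter on low values its adjusted p was 0.0569, and a pseudocount of 1 or 64 in place of 16 moved the difference to 1.65 or 0.49. The 4 other Afp probe sets, all under the filter, were not called. In a limma fit of all 45037 probe sets without the filter, which called 3.73% of them, their knockout DEN minus 4-week differences were -0.43 (1416646_at), 0.44 (1436879_x_at), 0.54 (1436880_at) and 0.10 (1436881_x_at), and none was called by limma, 1436880_at having the smallest adjusted p, 0.251, and the 1 unadjusted p under 0.05. Their signals ran from 0.511 to 49.3. The highest of these, on knockout DEN array 3, was read by 1436879_x_at, and that array also gave the highest value of 1416645_a_at.

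The level of Afp 1416645_a_at followed some genes of Kupffer cells, the resident macrophages of liver, array by array. Of all genes tested, the 3 most like it over the 18 arrays were Cd5l (Pearson r = 0.94), a secreted protein of tissue macrophages, Psmb8 (r = 0.90), an immunoproteasome subunit, and Clec4f (r = 0.89), a Kupffer cell lectin. Cd5l had signals of 986, 1378 and 1721 in knockout DEN livers, against 863, 817 and 801 in knockout 4-week livers and 1201, 1237 and 1238 in wild-type 4-week livers. The knockout 4-week livers were low for Cd5l as they were for Afp, and did not overlap either group. Over the 12 arrays without saline r of Afp with Cd5l was 0.95, and for deviations from the group means it was 0.87. With Clec4f these were 0.92 and 0.80. Spearman's rho over all arrays was 0.95 for Cd5l and 0.86 for Clec4f. All these values come from the same hybridizations, and the genes were picked as the most alike over them. The correlations are therefore a description, also those without saline or of deviations, which reuse the arrays that picked the genes.

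Of the 18 genes of a macrophage marker list, 16 were tested, and each of the 16 correlated positively with Afp 1416645_a_at, from r = 0.20 (Cd163) to 0.94 (Cd5l) with a median of 0.70, where the median over all genes was 0.02. For deviations from the group means r ran from 0.15 (Fcer1g) to 0.87 (Cd5l), with 0.23 for Cd68, 0.26 for Lyz2 and 0.81 for Csf1r. In knockout DEN livers 11 of these 16 genes rose and 0 fell against knockout 4-week livers (list median 0.63 in log2, median of all genes 0.00). By the same limma test 4.32% of 12896 genes rose. Tyrobp, a signalling adaptor of myeloid cells, rose by 1.22, Lyz2, a macrophage lysozyme, by 1.19, and Vsig4, a complement receptor of Kupffer cells, by 1.04. The list's summed signal was 7993 to 11445 in knockout DEN livers, 5975 to 6272 in knockout 4-week livers, 7954 to 10994 in wild-type DEN livers and 8463 to 9517 in wild-type 4-week livers. Its part in the Afp result was not tested. The other Afp probe sets correlated with Cd5l at r = 0.58 (1436879_x_at), 0.03 (1436880_at), 0.02 (1436881_x_at) and -0.06 (1416646_at).

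**Figure D2:**
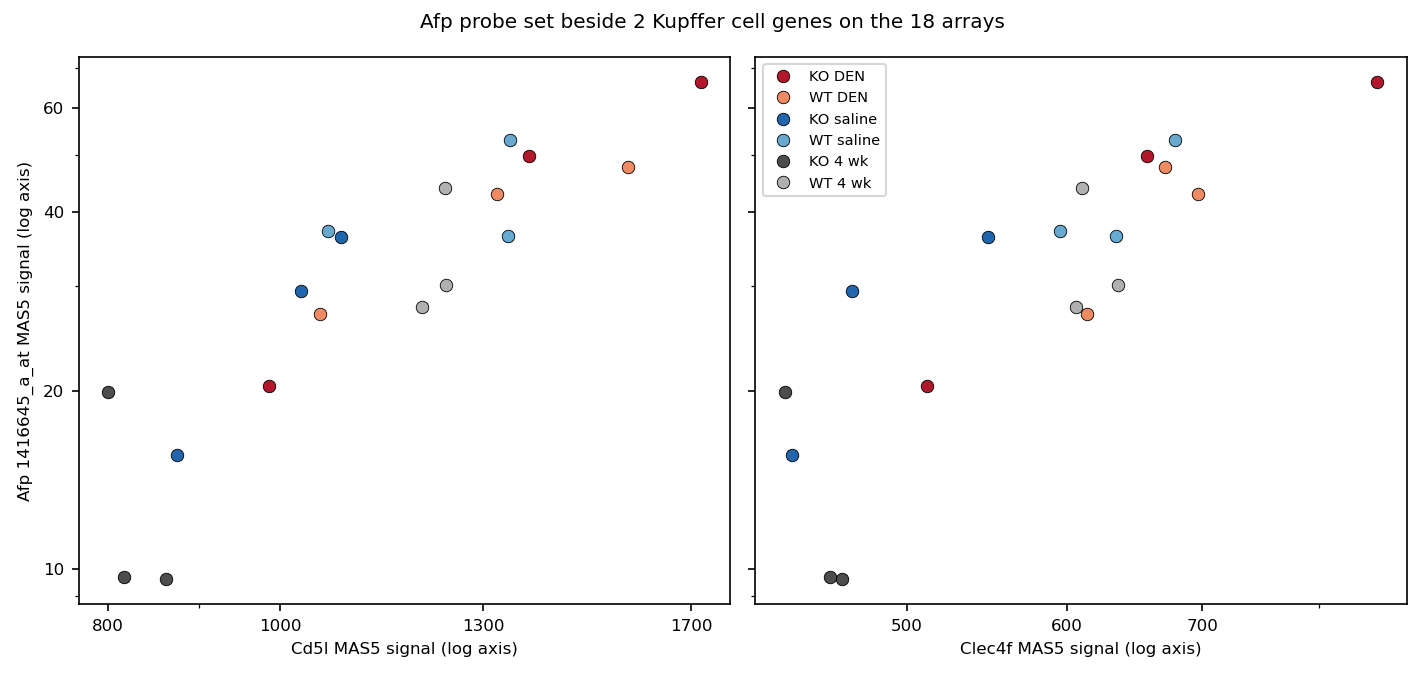
Signal of Afp 1416645_a_at (y axis, MAS5 signal, log axis) against that of Cd5l (left) and Clec4f (right; x axes, MAS5 signal, log axes) on each of the 18 arrays, coloured by group. The knockout 4-week arrays lie at the low end of both axes and knockout DEN array 3 at the high end.

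Genes that control Afp in mouse were read from a list of 12 tested regulators. Zbtb20, a zinc finger repressor of Afp after birth, had signals of 1316, 1221 and 1622 in knockout DEN livers, against 2221, 2079 and 2290 in knockout 4-week livers. It fell by 0.67 in log2 (SE 0.10, adjusted p = 0.000695, limma with Benjamini-Hochberg adjustment) without overlap. Of the 12, 5 fell and 1 rose in this comparison (list median -0.32), among them Cebpb, a liver-enriched activator, by 0.74 and Zfhx3, a repressor of the Afp gene also called Atbf1, by 0.67. By the same test 4.47% of all genes fell and 4.32% rose. Zhx2, another repressor of Afp, had 100.1, 79.75 and 74.73 in knockout DEN livers, against 60.04, 68.12 and 84.65 in knockout 4-week livers, with overlap. In wild-type livers 0 of the 12 was called with DEN against 4 weeks, beside 2.27% of all genes higher and 2.44% lower. At 4 weeks Zbtb20 was higher in knockout than in wild-type livers by 0.57 (adjusted p = 0.00317, limma), with 2196 ± 108 in knockout livers and 1474 ± 85.8 in wild-type livers (SD, n = 3 each), and Hnf4a, a nuclear receptor of hepatocytes, by 0.46 (adjusted p = 0.00238). These were the 2 of the 12 called there, 0 being lower, beside 1.78% of all genes higher and 1.29% lower. Alb itself had 38378 ± 1306 in knockout DEN livers, 39004 ± 3652 in wild-type DEN livers, 38725 ± 2093 in knockout 4-week livers and 38611 ± 3560 in wild-type 4-week livers (SD, n = 3 each). On the saline arrays, whose maximum signals were lower, Alb had 15300 ± 403 in knockout and 15419 ± 1807 in wild-type livers. With quantile-normalized values its DEN minus saline differences were 0.13 and 0.12 and were not called.

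The imprinted pair Igf2 and H19 showed no called difference. Igf2 1448152_at had signals of 31.0, 7.22 and 23.3 in knockout DEN livers and 7.41, 4.29 and 67.6 in wild-type DEN livers. It had 21.1, 18.2 and 27.1 in knockout saline livers and 25.7, 13.1 and 5.46 in wild-type saline livers. At 4 weeks it had 3.67, 16.2 and 31.3 in knockout livers and 26.0, 21.8 and 10.3 in wild-type livers. All groups overlapped, and the 9 pairwise log2 differences had 95% intervals between -1.13 and 1.26, the widest of the tested probe sets. Wild-type DEN array 3 stood out, with 67.6 where the other wild-type DEN arrays had 7.41 and 4.29. On the same array the probe set of Mir675 and H19, which ranged from 1.16 to 39.8 and was under the filter, had its highest value, 39.8, against 1.16 and 7.64 on the other wild-type DEN arrays. The other Igf2 probe set, 1415931_at, had 10.9 on that array and ranged from 0.884 to 26.2. Igf2 (142650768 to 142666816) and H19 (142575530 to 142578146) are neighbours on chromosome 7. Of 15 tested genes of the imprinted growth network, 0 was called with DEN against 4 weeks in either genotype or between the genotypes at 4 weeks. With DEN against 4 weeks 4.32% of all genes rose and 4.47% fell in knockout livers. In wild-type livers these shares were 2.27% and 2.44%. At 4 weeks 1.78% of all genes were higher and 1.29% lower in knockout livers. For 15 genes a count of 0 is near these shares.

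Of 16 tested genes of the insulin-like growth factor axis, 1 rose and 4 fell in knockout DEN livers against knockout 4-week livers. The falls included Igfbp1, by 1.28, and Igfbp2, by 0.78, both secreted binding proteins (adjusted p = 0.0291 and 0.00199, limma). In wild-type livers 1 rose and 2 fell, namely Igf1, the growth factor that liver secretes after birth, by 0.41, and the receptor substrates Irs2, which fell by 1.05, and Irs1, which fell by 0.65. At 4 weeks Igfbp2 was higher in knockout livers by 0.68 (adjusted p = 0.00955) and was the 1 gene called of the 16. Of all genes, 4.32% rose and 4.47% fell in the knockout comparison and 2.27% rose and 2.44% fell in the wild-type one, and at 4 weeks 1.78% were higher and 1.29% lower in knockout livers.

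Gpc3 1450990_at had 69.1, 43.9 and 6.44 in knockout DEN livers and 13.3, 21.3 and 23.3 in wild-type DEN livers. It had 16.2, 40.7 and 26.7 in knockout saline livers and 13.7, 19.3 and 18.2 in wild-type saline livers. At 4 weeks it had 3.02, 20.4 and 19.5 in knockout livers and 5.47, 22.3 and 1.54 in wild-type livers. Of the knockout DEN arrays, 2 were the highest of all and the third was below the wild-type DEN arrays, so the groups overlapped. The knockout DEN minus 4-week difference was 0.74 (SE 0.40, 95% interval -0.08 to 1.56, adjusted p = 0.272, limma) and was called only when knockout DEN array 3 was left out (1.29, adjusted p = 0.0329). A list of glypican and heparan sulphate genes also held genes of other kinds, such as Ptch1, the Hedgehog receptor, and Cd81. Of its 10 tested genes, 3 fell and 0 rose in knockout livers in this comparison: Sdc4, a syndecan, by 0.75, Gpc4 by 0.37 and Ptch1 by 0.30. Over all genes 4.47% fell and 4.32% rose. With quantile-normalized values 1 of the 10 fell, and Gpc4 (adjusted p = 0.0621) and Ptch1 (adjusted p = 0.052) were not called.

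Sox9 was the duct and progenitor gene with a called difference. Sox9 1451538_at had 24.5, 36.1 and 27.9 in knockout DEN livers and 40.03, 33.1 and 37.9 in wild-type DEN livers. It had 47.0, 30.5 and 60.9 in knockout saline livers and 42.1, 30.8 and 36.6 in wild-type saline livers. At 4 weeks it had 79.7, 54.0 and 78.4 in knockout livers and 39.6, 23.9 and 63.9 in wild-type livers. The knockout 4-week livers were the high group, above all knockout DEN livers but overlapping the wild-type 4-week livers. In order of the means, knockout 4 weeks (70.7 ± 14.5, SD, n = 3) was followed by knockout saline (46.1 ± 15.3), wild-type 4 weeks (42.5 ± 20.2), wild-type DEN (37.0 ± 3.57), wild-type saline (36.5 ± 5.66) and knockout DEN (29.5 ± 5.997). Only the first and the last pair of neighbours in this order differed by more than the larger of their SDs.

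In knockout livers Sox9 1451538_at fell by 0.92 in log2 with DEN against 4 weeks (SE 0.23, 95% interval -1.41 to -0.44, adjusted p = 0.0188, limma with Benjamini-Hochberg adjustment). In wild-type livers the difference was -0.09 (95% interval -0.57 to 0.40, adjusted p = 0.878). The difference between these changes was -0.84 (95% interval -1.53 to -0.15) and was not called (adjusted p = 0.253). The call was lost without knockout 4-week array 1 (-0.84, adjusted p = 0.0886) or 3 (-0.85, adjusted p = 0.0761) and without knockout DEN array 1 (-0.84, adjusted p = 0.0573), and a pseudocount of 64 gave -0.52. The knockout DEN and 4-week arrays are those whose Gapdh 3' to 5' ratios did not overlap; without the 4-week array of highest ratio in each genotype the difference was -0.84 (adjusted p = 0.048, limma).

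The second tested Sox9 probe set, 1424950_at, had 38.7, 48.6 and 16.2 in knockout DEN livers, against 49.5, 59.7 and 70.9 in knockout 4-week livers, without overlap. Its difference of -0.64 ran the same way and was not called (SE 0.23, 95% interval -1.12 to -0.17, adjusted p = 0.0862, limma). The third, 1433889_at, had signals from 1.26 to 31.7, was under the filter and gave -0.08 in the fit without it. The 3 genes most like Sox9 1451538_at over the 18 arrays were Lysmd3 (r = 0.83), Hs3st3b1 (r = 0.82), a heparan sulphate sulphotransferase, and Sema3f (r = 0.80), a semaphorin.

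**Figure D3:**
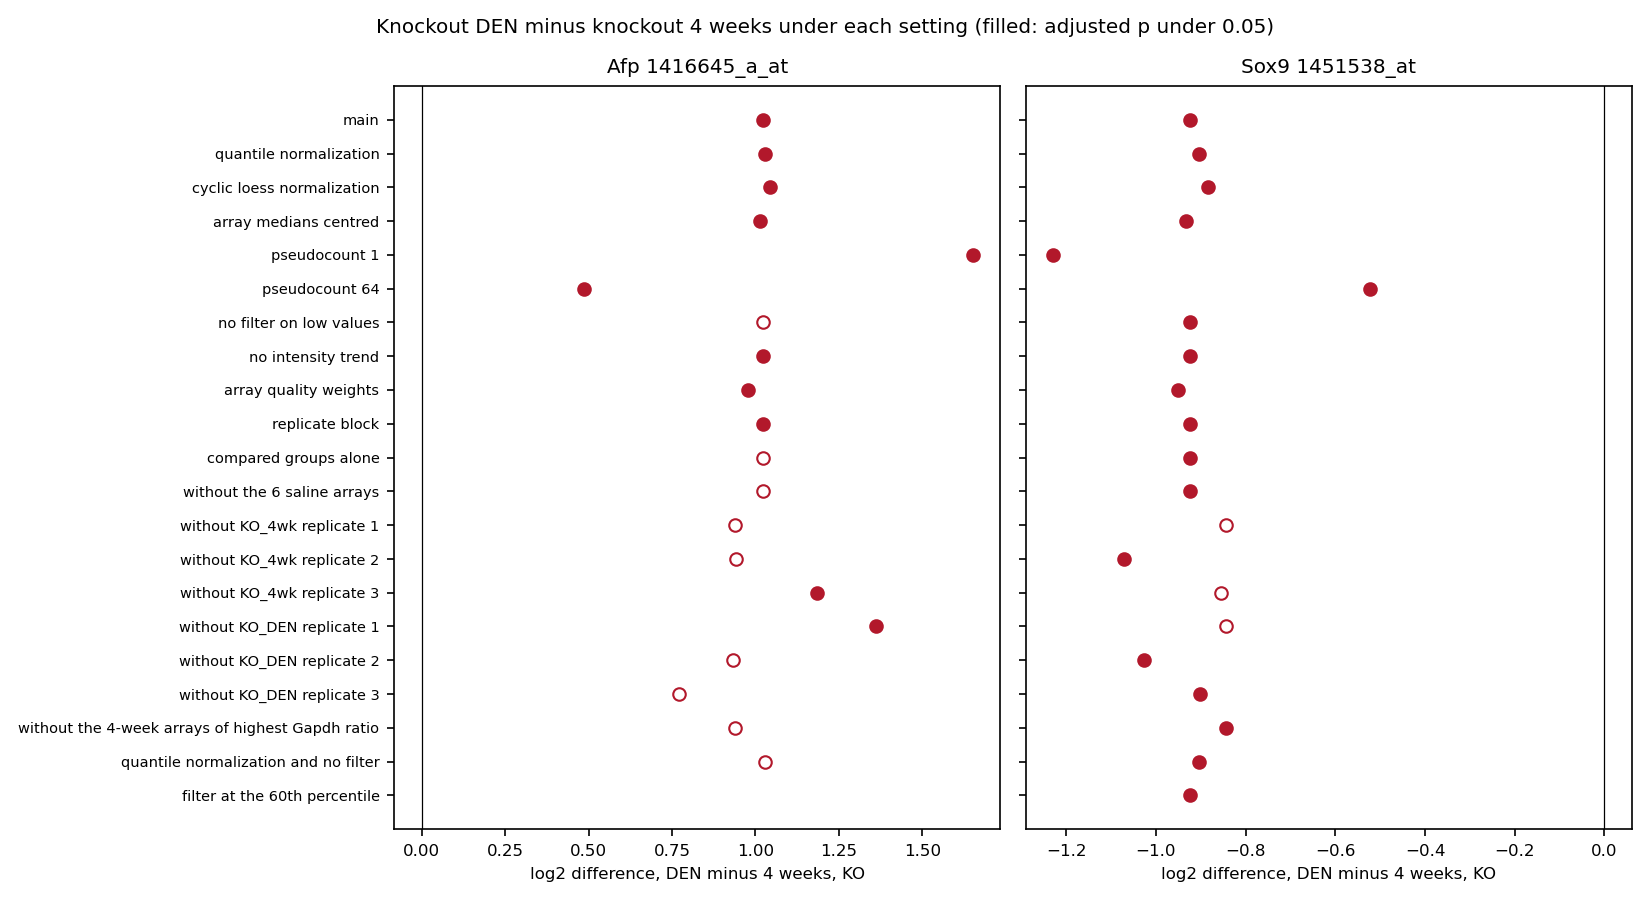
Knockout DEN minus knockout 4-week log2 difference (x axis) of Afp 1416645_a_at (left) and Sox9 1451538_at (right) in each fit (y axis); the panels have their own x axes. Filled points had an adjusted p under 0.05; Afp has no point with the filter at the 60th percentile, which it did not pass, and every point lies on the same side of 0 as the main value.

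Of 15 tested genes of the Notch and YAP pathways, which act on Sox9 in liver, 3 fell and 0 rose in knockout DEN livers against knockout 4-week livers, beside 4.47% of all genes lower and 4.32% higher. With quantile-normalized values 2 fell and 1 rose. Hes1, a Notch target, fell by 1.24 (adjusted p = 0.00244), Tead1, the DNA-binding partner of YAP, by 0.51 (adjusted p = 0.0424, limma; 0.0609 with quantile-normalized values) and Yap1 by 0.46 (adjusted p = 0.00766). In wild-type livers 0 of the 15 was called, beside 2.27% of all genes higher and 2.44% lower, and for Hes1 the difference between the changes was itself called at -1.57 (adjusted p = 0.0215, limma). At 4 weeks Hes1 was the 1 gene called of the 15, higher in knockout livers by 1.57 (adjusted p = 0.000863), where 1.78% of all genes were higher and 1.29% lower. Of 17 tested progenitor and duct reaction genes, 2 rose and 3 fell in knockout livers with DEN against 4 weeks (list median -0.11), beside the same 4.32% and 4.47% of all genes. Besides Hes1 they included Axin2, a Wnt target, which fell by 0.93, and Cd24a, a surface protein of progenitors and of leukocytes, which rose by 0.67. In wild-type livers 0 of the 17 was called, beside the same 2.27% and 2.44% of all genes. At 4 weeks 3 of the 17 were higher and 0 lower in knockout livers, beside 1.78% and 1.29% of all genes. Besides Hes1 these were Axin2, by 0.81 (adjusted p = 0.0242, limma), and Tbx3, by 0.64 (adjusted p = 0.0347, limma). With quantile-normalized values 2 were higher, and Tbx3 was not called (adjusted p = 0.05145, limma).

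With DEN against 4 weeks in wild-type livers the 2 probe sets of Epcam gave values of opposite sign; in some other comparisons their signs were the same. Epcam 1447899_x_at had 24.7, 27.4 and 51.5 in knockout DEN livers and 39.1, 45.3 and 43.2 in wild-type DEN livers. It had 46.3, 32.4 and 54.6 in knockout saline livers and 34.4, 43.8 and 13.4 in wild-type saline livers. At 4 weeks it had 13.3, 41.8 and 31.4 in knockout livers and 27.1, 44.9 and 20.4 in wild-type livers. It was called in no comparison, and its wild-type DEN minus 4-week difference was 0.36 (95% interval -0.25 to 0.96, adjusted p = 0.539, limma). Epcam 1416579_a_at, which was under the filter, had 2.38, 1.42 and 0.987 in wild-type DEN livers, against 20.4, 29.1 and 24.1 in wild-type 4-week livers. In the fit without the filter this was -1.20 (adjusted p = 0.0393, limma, where 1.88% of 45037 probe sets were called). The call was lost when any one array of these groups other than wild-type 4-week array 1 was left out (adjusted p from 0.064 to 0.131), and the size was -3.32 with a pseudocount of 1 and -0.43 with 64. In knockout livers it had 1.47, 2.17 and 3.60 with DEN, against 16.8, 10.1 and 1.48 at 4 weeks, with overlap.

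Krt19 1417156_at was under the filter, with signals from 1.46 to 25.1. It had 21.7, 16.7 and 17.3 in knockout DEN livers and 10.6, 12.4 and 19.9 in wild-type DEN livers, and 7.55, 4.54 and 16.4 in knockout saline and 1.46, 14.4 and 5.11 in wild-type saline livers. The 4-week values were 25.1, 8.07 and 12.2 in knockout livers and 4.86, 23.4 and 19.5 in wild-type livers. Knockout saline livers lay just below knockout DEN livers, and the other groups compared overlapped. Without the filter its knockout DEN minus saline difference was 0.46 (95% interval -0.14 to 1.06, adjusted p = 0.404, limma), and its knockout DEN minus 4-week difference was 0.19 (95% interval -0.41 to 0.79).

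Prom1 1419700_a_at had 13.3, 18.6 and 31.4 in knockout DEN livers and 22.9, 29.2 and 26.6 in wild-type DEN livers. It had 10.8, 14.9 and 19.1 in knockout saline livers and 17.8, 22.8 and 12.6 in wild-type saline livers. At 4 weeks it had 30.0, 17.1 and 29.3 in knockout livers and 24.8, 45.4 and 38.6 in wild-type livers. Wild-type saline livers lay below wild-type 4-week livers, and their difference of -0.62 was the largest of Prom1 (SE 0.24, 95% interval -1.13 to -0.12). It was not called (adjusted p = 0.132, limma).

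Of 9 tested bile duct epithelium genes other than the members, 1 rose and 1 fell in knockout DEN livers against knockout 4-week livers, and 2 rose and 2 fell in wild-type livers. Over all genes these shares were 4.32% higher and 4.47% lower in knockout livers and 2.27% higher and 2.44% lower in wild-type livers, and they apply to the next lists too. Onecut1, a transcription factor of ducts and hepatocytes, rose by 1.33 in knockout livers (adjusted p = 0.00161) and by 1.82 in wild-type livers (adjusted p = 0.000174, limma). The gene that fell in knockout livers was Cdh1, by 0.66 (adjusted p = 0.0123, limma). With saline against 4 weeks Onecut1 also rose in wild-type livers, by 1.14 (adjusted p = 0.00212, limma). There 2 of the 9 rose and 3 fell. With saline in knockout livers 0 rose and 2 fell, Krt18 by 0.44 and Krt8 by 0.42. Of all tested probe sets 8.26% were called there in wild-type and 9.94% in knockout livers. With DEN against saline in knockout livers 3 rose, Onecut1 among them by 0.75, and 1 fell, Cdh1 by 1.04. In wild-type livers 0 rose and 1 fell, with 15.1% (knockout) and 6.54% (wild type) of all called. With DEN against 4 weeks in wild-type livers Krt23 rose by 1.39, and Krt8, a keratin that hepatocytes share, fell by 0.31. Of 15 tested genes reported in liver tumours, 2 rose and 0 fell in knockout livers, Lcn2, a siderophore-binding secreted protein, by 0.99 and Cd24a by 0.67; with quantile-normalized values 3 rose. In wild-type livers 2 rose and 0 fell, Tff3, a trefoil peptide, by 1.54 and Lcn2 by 1.33. With saline against 4 weeks in wild-type livers Tff3 and Lcn2 also rose, by 0.82 and 0.85, and 1 of the 15 fell. In that comparison 8.26% of all tested probe sets were called. With quantile-normalized values these 2 rises with saline were not called (adjusted p = 0.0808 and 0.0784, limma). The fall, of Gstp1 by 1.03, was also not called with these values (difference 0.04, adjusted p = 0.763, limma). Of 13 tested proliferation genes and 5 oncofetal regulators, limma called 0 with DEN against 4 weeks in either genotype, and with quantile-normalized values 1 proliferation gene rose in knockout livers.

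Between the genotypes, limma called 0 of the 7 tested marker probe sets in any condition. With DEN the log2 differences of knockout minus wild type ran from -0.25 (Epcam) to 0.47 (Gpc3), 0 had an unadjusted p under 0.05, and 0.0074% of all tested probe sets were called. With saline they ran from -0.45 (Afp) to 0.42 (Epcam), again 0 with an unadjusted p under 0.05, beside 0.0111% called. At 4 weeks 3 had an unadjusted p under 0.05, beside 2.26% called and 14.9% at that unadjusted threshold. These were Afp 1416645_a_at, -0.79 (95% interval -1.37 to -0.21, adjusted p = 0.161), Sox9 1424950_at, 0.65 (95% interval 0.17 to 1.12, adjusted p = 0.161) and Sox9 1451538_at, 0.61 (95% interval 0.12 to 1.10, adjusted p = 0.203). For Sox9 1424950_at the 4-week signals were 49.5, 59.7 and 70.9 in knockout livers, against 38.1, 30.1 and 29.1 in wild-type livers, without overlap. The 95% intervals of the 7 probe sets reached from -0.87 to 1.29 with DEN and from -1.03 to 1.26 with saline. At 4 weeks 5 of the 16 macrophage list genes were lower and 0 higher in knockout livers (list median -0.53, beside 1.29% of all genes lower), led by Tyrobp, which fell by 1.14, and their part in the Afp values was not tested.

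DEN against saline, by design the comparison closest to the carcinogen, called 0 of the 7 in either genotype by limma. Also 0 had an unadjusted p under 0.05. The saline arrays stood apart, however, with maximum signals of 16720 to 21752 against 46967 to 60173 on the others. In every comparison with saline, treatment therefore cannot be told apart from this difference between arrays, also in the shares of all probe sets called. With DEN against saline in knockout livers, 15.1% of all tested probe sets were called. The differences of the 7 ran from -0.43 (Sox9 1451538_at, 95% interval -0.92 to 0.06) to 0.46 (Afp, 95% interval -0.12 to 1.04). In wild-type livers they ran from -0.36 (Sox9 1424950_at) to 0.39 (Epcam), where 6.54% were called. With quantile-normalized values the smallest adjusted p were 0.169 in knockout and 0.361 in wild-type livers. Saline against 4 weeks called 0 of the 7 in knockout livers, where 9.94% of all were called, and 0 in wild-type livers, where 8.26% were. In each genotype 1 probe set had an unadjusted p under 0.05 there: Sox9 1451538_at in knockout livers (-0.50, adjusted p = 0.204) and Prom1 in wild-type livers. The 3 differences between the genotypes' responses called 0 of 7 each, beside 0%, 0.0037% and 0.762% called for DEN minus saline, saline minus 4 weeks and DEN minus 4 weeks. In the last, Afp and Sox9 1451538_at had an unadjusted p under 0.05, and in the others no tested marker did. The share of all tested probe sets at that unadjusted threshold is not given for the comparisons of this paragraph, so these counts were not set against it. DEN, saline and 4-week comparisons of one genotype share arrays, so these values are not independent of one another.

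**Figure D4:**
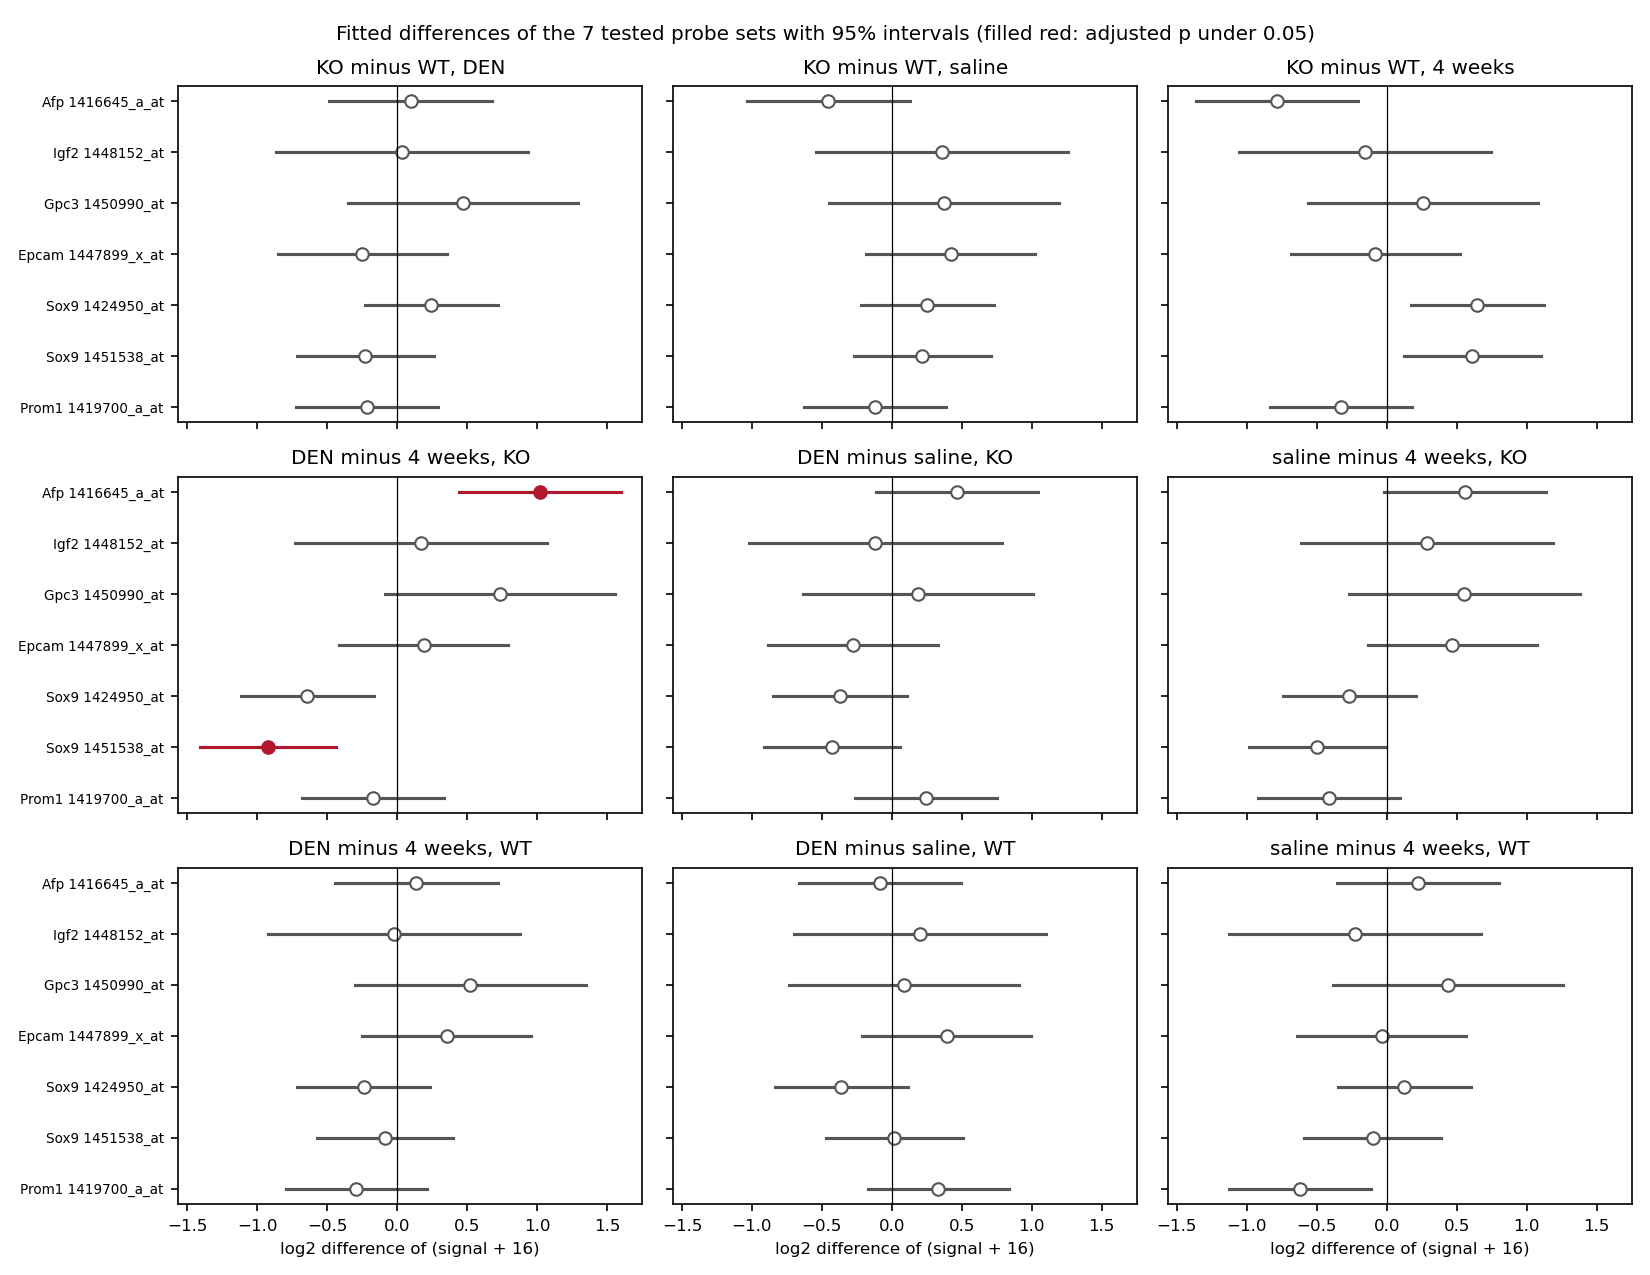
Log2 differences of signal plus 16 (x axis) with 95% intervals for the 7 tested probe sets (y axis) in the 9 pairwise comparisons. The filled red points, Afp 1416645_a_at and Sox9 1451538_at with DEN minus 4 weeks in knockout livers, are the only ones with an adjusted p under 0.05.

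The remaining members had other nearest genes over the 18 arrays. Prom1 was most like Ncoa1 (r = 0.86), Rnf26 (r = 0.86) and Gle1 (r = 0.86), and Gpc3 most like Sox10 (r = 0.77), Rgcc (r = 0.76) and Cav1 (r = 0.75). Epcam was most like Dtx3 (r = 0.74), Adad2 (r = 0.73) and Mertk (r = 0.73), and Igf2 most like Mmp16 (r = 0.73), Gm839 (r = 0.70) and Als2cl (r = 0.68). These values are the highest of 12896 genes for each member and describe the same 18 hybridizations.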

How the data were processed

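RNA from frozen liver was hybridized to 18 arrays of 45101 probe sets, 3 per group. Per the submitters' processing notes the deposited intensity values were made by the authors with MAS5, whose version is not given in the sources used here. They are linear, 1 per probe set and array, with no depth: the number of arrays limits the precision. Genes were named from the platform annotation: of 45037 probe sets that are not controls, 34945 name 1 gene, 932 several and 9160 none.

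From these values 16 was added and log2 taken, and probe sets whose mean reached the 40th percentile (27022) entered limma 3.58.1 (R 4.3.3; lmFit, eBayes with an intensity trend). The model had 1 coefficient per group, 12 residual and 9.19 prior degrees of freedom. There were 12 contrasts, each with Benjamini-Hochberg adjustment over all tested probe sets and a threshold of 0.05, all two-sided. "Rose", "fell" and "called" mean an adjusted p under 0.05. Probe sets under the filter were fitted in a second fit without it. The script was tested on simulated data.

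All probe sets of the members were named, with up to 3 called genes of largest change per gene list and the 3 genes most correlated with each tested member on quantile-normalized values. A listed gene counts once, by its tested probe set of highest mean. The members and lists were chosen with earlier results of these data known. Alternatives were other normalizations, pseudocounts, filters and fits, a replicate block and leaving out arrays. Same-numbered arrays of different groups did not deviate together (r from -0.10 to 0.12 over 45 pairs), so the numbers were not taken to pair samples.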

Additional observations from a re-analysis of the deposited data

How the results depend on the processing

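In 10 of the 12 comparisons the count of called marker probe sets stayed the same under every alternative run. With DEN against 4 weeks in knockout livers the count of 2 was 1 with no filter, the filter at the 60th percentile, the compared groups alone or the 6 saline arrays left out. It was also 1 in fits chosen after seeing the data, without the 4-week arrays of highest Gapdh 3' to 5' ratio and with quantile normalization and no filter, and ran from 0 (without knockout 4-week array 1) to 2 with 1 array left out. In wild-type livers the count of 0 was 1, Epcam 1416579_a_at, with no filter and with quantile normalization and no filter. Of 1650 single differences under an alternative, 1637 stayed on the same side of the threshold, 12 were no longer called, 1 became called and 0 of the called ones reversed; 98 that were not called changed sign, the largest of them 0.32 in size. With the replicate block the count for DEN against 4 weeks in knockout livers was 2 and no other count moved. These settings change which arrays or how many probe sets enter a fit; beyond that the cause was not tested. The marker signals were at most 79.7, and with 3 arrays a group the SE of a pairwise log2 difference was 0.23 to 0.43.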

Other observations

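On wild-type DEN array 3, Igf2 1448152_at, the probe set of Mir675 and H19, and Sox9 1433889_at (31.7, against 1.26 and 4.36 on the other wild-type DEN arrays) each had their highest value of the 18 arrays. These were singled out after their values were seen, and no comparison rests on them. Array 2 of that group likewise held high values of Afp 1416646_at (27.2, against 1 and 3.70) and Afp 1436881_x_at (28.2, against 0.677 and 2.26).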
